A study of Mus musculus with 6 samples.

Results

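The GIMAP family (GTPases of immunity-associated proteins) was examined in CD8 T cells of the mouse spleen. The members were taken by gene symbol, Gimap1, Gimap3, Gimap4, Gimap5, Gimap6, Gimap7, Gimap8 and Gimap9, and all 8 were found among the 17744 genes of the deposited table. No other row of the table carries a Gimap symbol. The study sequenced RNA of spleen cells sorted as CD45+ CD3+ CD8a+, in 3 control samples and 3 samples labelled with fus irradiation. Its title gives noninvasive focused ultrasound, sound waves concentrated on a tissue, aimed at activating the spleen. The genotype field reads wt for the controls and repeats the treatment for the others. Strain, age, dose and the time after treatment are not given in the sources used here. The samples are called control 1 to 3 and ultrasound 1 to 3 after their titles. Nothing in the labels says that they came from separate animals, so p-values measure only the spread between these samples. In bulk RNA, fewer cells of a type and less RNA per cell cannot be told apart.

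GIMAP proteins share a GTP-binding domain of the AIG1 type, related to that of septins, and are found mainly in lymphocytes, where most of them sit on intracellular membranes. The family is known for lymphocyte survival. Loss of Gimap5 leaves mice and rats short of T cells, loss of Gimap1 depletes mature T and B cells, and Gimap4 promotes the death of T cells. Gimap6 binds a GABARAP-type protein of the autophagy machinery. Gimap expression is also high in B cells and NK cells, and several members are expressed in endothelium.

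The 8 genes lie side by side on chromosome 6 of build GRCm38 (mm10, the build in the submitters' processing notes). By RefSeq coordinates they run from 48647186 to 48770851, a stretch of 123.7 kb, in the order Gimap8, Gimap9, Gimap4, Gimap6, Gimap7, Gimap1, Gimap5 and Gimap3. Gimap6 and Gimap3 are on the minus strand and the other 6 on the plus strand. The spaces between neighbours range from 2401 bases, between Gimap1 and Gimap5, to 15245 bases, between Gimap8 and Gimap9. The 250 bases before the start of 5 members are printed from RefSeq (GRCm38.p6), because these members took different courses in the libraries: Gimap6 and Gimap8 were lower in every ultrasound library, Gimap3 and Gimap7 stood highest in ultrasound 2 and 3, and Gimap5 stayed near its control level. Capitals mark matches to the motifs named after them.
Gimap6, chr6:48708245-48708494, minus strand: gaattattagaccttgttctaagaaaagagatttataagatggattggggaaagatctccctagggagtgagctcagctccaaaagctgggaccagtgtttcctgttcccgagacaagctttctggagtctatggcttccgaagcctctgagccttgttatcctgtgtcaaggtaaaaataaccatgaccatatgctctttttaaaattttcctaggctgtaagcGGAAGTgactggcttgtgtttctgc
Gimap8, chr6:48647111-48647360, plus strand: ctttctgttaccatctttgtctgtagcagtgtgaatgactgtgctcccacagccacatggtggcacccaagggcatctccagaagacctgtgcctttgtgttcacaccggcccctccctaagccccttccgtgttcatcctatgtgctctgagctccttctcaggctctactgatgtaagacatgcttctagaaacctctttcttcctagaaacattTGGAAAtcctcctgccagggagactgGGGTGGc
Gimap3, chr6:48770852-48771101, minus strand: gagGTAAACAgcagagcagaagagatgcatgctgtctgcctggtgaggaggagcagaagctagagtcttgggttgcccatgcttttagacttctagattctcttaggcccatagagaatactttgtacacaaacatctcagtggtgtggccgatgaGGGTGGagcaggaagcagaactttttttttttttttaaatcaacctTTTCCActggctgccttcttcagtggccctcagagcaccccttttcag
Gimap7, chr6:48718371-48718620, plus strand: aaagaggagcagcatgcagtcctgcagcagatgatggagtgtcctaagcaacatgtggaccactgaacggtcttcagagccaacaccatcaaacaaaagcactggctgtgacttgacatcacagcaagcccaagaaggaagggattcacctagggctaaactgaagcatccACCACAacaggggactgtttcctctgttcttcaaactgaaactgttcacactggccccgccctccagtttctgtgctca
Gimap5, chr6:48745947-48746196, plus strand: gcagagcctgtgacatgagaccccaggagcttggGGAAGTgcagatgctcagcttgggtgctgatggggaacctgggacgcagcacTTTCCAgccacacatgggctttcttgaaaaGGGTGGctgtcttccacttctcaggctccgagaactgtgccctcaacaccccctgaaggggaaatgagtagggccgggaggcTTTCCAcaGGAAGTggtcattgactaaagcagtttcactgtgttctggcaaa

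Short motifs of lymphocyte transcription factors were searched on both strands, each motif by itself, with overlaps between motifs allowed. They were ETS (GGAAGT), RUNX (TGTGGT), TCF/LEF (CTTTGA), KLF (CCACCC), FOXO (GTAAACA), Ikaros (TGGGAA), AP-1 (TGANTCA) and NFAT (TGGAAA). Gimap8 has 2 RefSeq starts, so the 8 members give 9 windows. The ETS letters occurred in 2 of the 9, those of Gimap6 and Gimap5, against 19.7% of 32851 mouse windows of the same length. In Gimap6 they lie 25 to 20 bases before the start. RUNX letters occurred in 3 windows (Gimap4, Gimap7 and Gimap1), against 14% of all. KLF and NFAT letters occurred in 5 windows each, against 28.1% and 18.6% of all. FOXO letters occurred in that of Gimap3 alone among the members, against 3.17% of all. TCF/LEF, Ikaros and AP-1 letters were in none of the 9 windows, against 13.8%, 21.6% and 6.75% of all. These are matches of letters in a window and not measured binding sites.

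The libraries hold 35024080 to 38113103 reads, and a member had from 1616 reads (Gimap7 in ultrasound 1) to 42212 (Gimap3 in ultrasound 3). Values are FPKM, fragments scaled to gene length and library size, so levels can be compared between genes. All 12 T and CD8 markers (Ptprc, Cd3d, Cd3e, Cd3g, Cd247, Cd2, Cd5, Cd8a, Cd8b1, Lck, Zap70 and Lat) were present, with summed FPKM of 3243 to 3413 in controls, 2838 in ultrasound 1, and 3378 and 3131 in ultrasound 2 and 3. Of these markers 0 passed the test between groups. Markers of other cells were present too, none of them at 0 in all libraries. The 9 monocyte and macrophage markers summed to 485 to 999 FPKM in controls and 2175 to 3634 in ultrasound libraries. Of the 9, 8 did not overlap between groups, on the higher side with ultrasound, beside 25.9% of all tested genes. The 8 neutrophil markers summed to 181 to 562 in controls and 626 to 2231 in ultrasound libraries. The 7 listed B cell markers summed to 241 to 370 in controls, 179 in ultrasound 1, and 976 and 849 in ultrasound 2 and 3. The 5 NK markers summed to 4.26 to 7.07 in controls, 8.56 in ultrasound 1, and 29.4 and 24.9 in ultrasound 2 and 3. The 8 endothelial markers summed to 44 to 46.4 in controls, 41 in ultrasound 1, and 63.2 and 59.1 in ultrasound 2 and 3. Most of this was Pecam1, at 36.7 to 55.5 FPKM, and Eng, at 3.98 to 6.08, while Cdh5, Kdr, Tek, Vwf, Emcn and Plvap stayed under 1 FPKM in every library.

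GIMAP transcripts were abundant in every library. By mean FPKM over the 6 libraries, Gimap6 ranked 122 among 10655 genes that passed the filter on low values (FPKM of at least 1 in 3 libraries), Gimap3 131 and Gimap4 153. Gimap5, the lowest member, still exceeded 88.6% of these genes. All 8 members passed the filter. Together they reached 1605 to 1762 FPKM in controls and 1441, 1691 and 1645 in ultrasound 1, 2 and 3, so the family's summed level overlapped between the groups.

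In controls the members fell into 3 tiers. Gimap6 stood at the top with 523 ± 46.2 FPKM, above Gimap3 (371 ± 25.0) and Gimap4 (361 ± 4.18), whose ranges overlap (SD, n = 3 here and throughout). Gimap8 (105 ± 2.01), Gimap1 (102 ± 3.15) and Gimap9 (95.2 ± 7.06) formed a middle tier whose ranges overlap. Gimap7 (52.3 ± 4.52) and Gimap5 (52.0 ± 0.429) overlap at the bottom. The order differed in ultrasound 2 and 3, where Gimap3 was the highest member, Gimap7 stood above Gimap8, and Gimap8 ranked 7 of the 8. In ultrasound 1 Gimap6 was the highest member, as in all controls, and Gimap7 the lowest, as in control 1, while Gimap5 was the lowest in control 2 and 3.

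The comparison of ultrasound with control asked whether the treatment altered the cells' transcripts. By limma on log2(FPKM + 1), with Benjamini-Hochberg adjustment over all tested genes, 0 of the 8 members had an adjusted p under 0.05, while 8.11% of all tested genes did (1.56% lower and 6.55% higher). At an unadjusted p under 0.05 there were 3 members (Gimap3, Gimap6 and Gimap8), against 31.2% of all tested genes. In 3 members (Gimap6, Gimap8 and Gimap9) every ultrasound library was lower than every control, and in 0 members every one was higher. Among all tested genes the groups did not overlap for 34.8%, with 8.96% lower and 25.9% higher. With 3 samples against 3, an exact two-sided permutation test of 1 gene cannot go below 0.1. The authors' deposited table, whose headers name DESeq2, gives q under 0.05 for 3 members, Gimap6, Gimap8 and Gimap9, all lower, against 12.3% of its genes (4.98% lower). It gives 0 members a p under 0.05 with a fold of at least 1.5, against 15.5% of its genes.

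**Figure D1:**
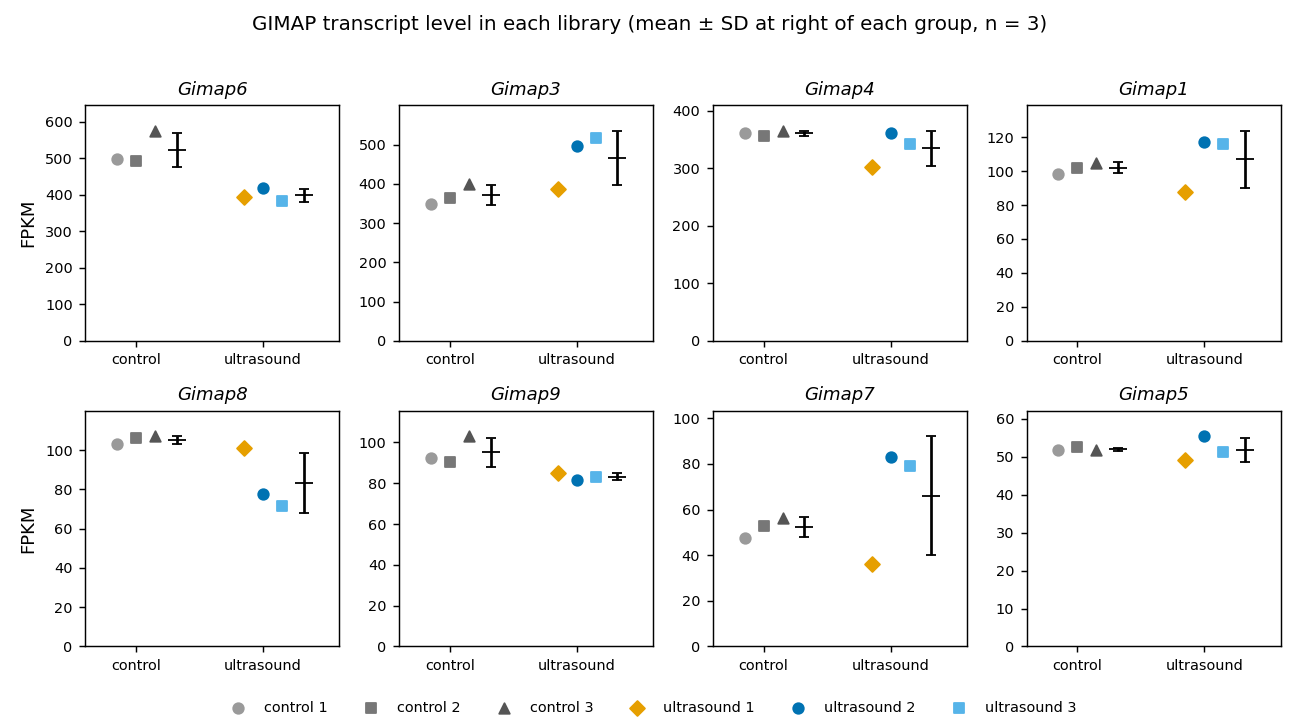
FPKM of each GIMAP gene (y axis, starting at 0) in the 3 control and 3 ultrasound libraries, with the mean and SD of each group (n = 3) beside its points. Gimap6, Gimap8 and Gimap9 have no overlap between groups, while for Gimap1 and Gimap7 ultrasound 1 lies below the controls and ultrasound 2 and 3 above them.

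Scaling bears on small differences such as these. The median log2 difference over all tested genes was 0.087 as deposited and -0.023 with median-of-ratios size factors, and 80.8% of the genes called were higher in the first case against 60% in the second. Relative to the median of all genes, the members' differences ran from -0.47 (Gimap6) to 0.23 (Gimap3).

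Gimap6, the member tied to autophagy, had the clearest difference. It read 499, 493 and 576 FPKM in control 1, 2 and 3 and 394, 419 and 384 in ultrasound 1, 2 and 3. The 3 ultrasound libraries lay close together, all below the lowest control. The log2 difference was -0.39 with a standard error of 0.098 and a limma adjusted p of 0.0583, just outside the threshold. The result of Gimap6 depended on the scaling. It alone among the members passed with 3 of them: -0.51 with median-of-ratios size factors (limma adjusted p 0.0477, beside 4.39% of all tested genes, 1.76% lower), -0.50 with upper-quartile factors (0.0454, beside 5.42%, 2% lower) and -0.51 by voom on the recovered reads (0.0428, beside 5.33%, 2.35% lower). With scaling to T markers it did not pass, at -0.31 (limma adjusted p 0.107). Over all alternatives the adjusted p ranged from 0.000233 to 0.205. The authors' deposited table has a log2 change of -0.52 with q of 0.000233. Relative to the control mean, Gimap6 lay at -0.40, -0.32 and -0.44 on the log2 scale in ultrasound 1, 2 and 3. The monocyte, macrophage and neutrophil marker sums were higher in all 3 of these libraries than in every control, and their part in the value of Gimap6 was not tested.

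Gimap9 had 92.2, 90.2 and 103 FPKM in controls and 85, 81.6 and 83.2 in ultrasound libraries. All ultrasound values lay below the controls, and they spread little, at -0.16, -0.22 and -0.19 from the control mean on the log2 scale. Its log2 difference was -0.19 with a standard error of 0.088 and a limma adjusted p of 0.188, against q of 0.0436 in the authors' deposited table. In RefSeq the long noncoding gene Gm46958 overlaps Gimap9, and its own value did not exceed 0.484 FPKM in any library. A read-through gene model of GENCODE M21, Gm28053, spans Gimap7, Gimap1 and part of Gimap5, and how its reads were counted is not given in the sources used here.

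Gimap8, which carries repeated GTP-binding domains in one protein, had 103, 106 and 107 FPKM in controls. It had 101 in ultrasound 1, next to the controls, and 77.7 and 71.7 in ultrasound 2 and 3. The controls differed from each other by little, with a coefficient of variation of 1.91% where counting error alone gives 0.849%. The log2 difference was -0.35 with a standard error of 0.13 and a limma adjusted p of 0.138. The mean of ultrasound 2 and 3 lay -0.49 from the control mean on the log2 scale, and ultrasound 1 at -0.064. In the authors' deposited table its q is 0.0442.

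The survival members did not share one course. Gimap1 had 98.3, 102 and 105 FPKM in controls, 87.8 in ultrasound 1, and 117 and 116 in ultrasound 2 and 3. The ultrasound libraries thus lay on both sides of the controls, and the log2 difference was 0.062 with a standard error of 0.13 (limma adjusted p 0.753), turning negative at -0.062 with median-of-ratios size factors. In GENCODE M21 the antisense gene Gimap1os overlaps Gimap1, and since the strand setting of the counting is not given in the sources used here, reads of the antisense gene cannot be told apart from those of Gimap1. Gimap5, whose loss causes T cell lymphopenia, had 51.8, 52.5 and 51.7 FPKM in controls and 49.2, 55.4 and 51.2 in ultrasound libraries. Its controls varied by 0.826%, less than the 1.68% that counting error alone would give. The log2 difference of Gimap5 was -0.0033 with a standard error of 0.081 (limma adjusted p 0.98), the smallest of the 8, and it turned positive at 0.077 under scaling to T markers.

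Gimap3, the closest relative of Gimap5, had 350, 365 and 399 FPKM in controls, 387 in ultrasound 1, and 496 and 516 in ultrasound 2 and 3. Ultrasound 1 lay among the controls and the other ultrasound libraries above them all. The log2 difference was 0.32 with a standard error of 0.13 and a limma adjusted p of 0.157. Gimap3 and Gimap5 transcripts share an identical stretch of 140 bases in GENCODE M21, and 7.52% of the 50-base words of Gimap3 and 9.98% of those of Gimap5 are common to both. Reads from such stretches cannot be assigned to one gene, so both levels are uncertain to that extent. No other pair of members shares a stretch of 50 bases, and the next longest was 17.

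Gimap7 varied most. It had 47.5, 52.9 and 56.5 FPKM in controls, 36.2 in ultrasound 1, the lowest of all 6 libraries, and 83.2 and 79.0 in ultrasound 2 and 3. Ultrasound 2 and 3 exceeded ultrasound 1 by 2.30-fold and 2.18-fold, more than for any other member, and the coefficient of variation within the ultrasound group was 39.4%, where counting error gives 1.79%. The log2 difference between groups was 0.24 with a standard error of 0.31 (limma adjusted p 0.592). Gimap1, Gimap3 and Gimap7, the members highest in ultrasound 2 and 3, had this in common with the B cell, NK, dendritic and endothelial marker sums. Among the T and CD8 markers, Cd3e, Cd247, Cd2 and Lck were also highest there. Ptprc and Lat were lowest in these libraries, and the rest were neither. The summed T and CD8 markers were not highest in them. The part of any of these cells in the values of the 3 members was not tested.

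Gimap4, which promotes T cell death, had 362, 357 and 365 FPKM in controls and 302, 361 and 343 in ultrasound 1, 2 and 3. Ultrasound 1 was the lowest, and ultrasound 2 lay among the controls. Its log2 difference was -0.11 with a standard error of 0.097 (limma adjusted p 0.442). The 3 controls varied by 1.16%, near the 0.649% of counting error.

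**Figure D2:**
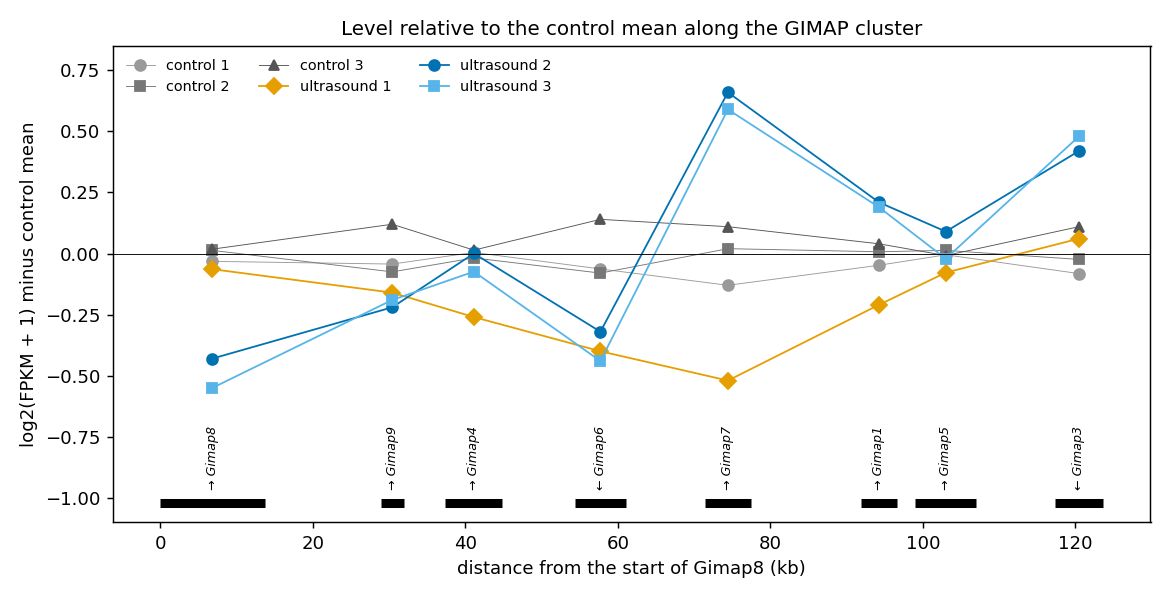
Level of each member relative to the control mean (y axis, log2(FPKM + 1) difference) against its position in the cluster (x axis, kb from the start of Gimap8), for each library; black bars are the genes, arrows their direction of transcription, and lines only join the points of a library. Ultrasound 2 and 3 run below the controls at Gimap8 and Gimap6 and above them at Gimap7, Gimap1 and Gimap3, while ultrasound 1 is lowest at Gimap7.

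Position in the cluster did not set the members' values apart in one block. The Gimap8 end of the cluster holds the 3 members whose ultrasound libraries were all below the controls, but Gimap4 lies between Gimap9 and Gimap6 and overlapped with the controls. At the other end, Gimap5 lies between Gimap1 and Gimap3 and had 55.4 and 51.2 FPKM in ultrasound 2 and 3, near its controls. Gimap6 and Gimap7 are neighbours transcribed in opposite directions, and in ultrasound 2 Gimap6 lay at -0.32 and Gimap7 at 0.66 relative to the control mean.

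A list of genes taken as neighbours of the cluster was examined too. Their positions were not checked, and not all of them lie near it. Of the 14 listed genes 9 passed the filter, and 1 of the 9 passed the test, beside 8.11% of all tested genes. This was Repin1, a zinc finger gene. It had 0.907 to 1.1 FPKM in controls and 1.51, 2.14 and 2.08 in ultrasound libraries, a log2 difference of 0.53 (limma adjusted p 0.0499). With any 1 control, ultrasound 2 or ultrasound 3 left out, 0 of the 9 passed by limma. Of all tested genes, 571 passed in the fit without control 1 and 0 in the others. The unadjusted limma p was under 0.05 for 2 or 3 of the 9, beside 1913 to 2393 of 10471 to 10586 tested genes. Without ultrasound 1, 5 of the 9 passed, near the share of 53.6% of all tested genes. The median of the 9 was 0.21, against 0.087 for all tested genes. Tmem176b and Tmem176a had 5.90 to 12.1 and 7.40 to 13.1 FPKM in controls. In ultrasound 1, 2 and 3 Tmem176b had 12.8, 25.5 and 38.3 FPKM and Tmem176a 12.2, 19.7 and 28.3. Their log2 differences of 1.49 and 0.94 had limma adjusted p of 0.0724 and 0.11. Both are known from myeloid and dendritic cells. The monocyte and macrophage sum was higher in all ultrasound libraries and the dendritic sum was highest in ultrasound 2 and 3, at 75.2 and 67.4 FPKM against 20.7 to 41.9 in controls and 23.3 in ultrasound 1. The part of those cells was not tested. Cdk5, a kinase, and Lrrc61 had log2 differences of 0.21 and 0.023. Zfp775 had a log2 difference of -0.063 (limma adjusted p 0.719).

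Ratios between members of the same library do not depend on how libraries were scaled. Gimap3 relative to Gimap6 was 0.702, 0.739 and 0.692 in controls and 0.981, 1.18 and 1.35 in ultrasound 1, 2 and 3. It was higher in each ultrasound library than in every control, ultrasound 1 included. Gimap3 relative to Gimap4 was 0.966, 1.02 and 1.09 in controls and 1.28, 1.37 and 1.5 in ultrasound libraries, again without overlap. Gimap7 relative to Gimap8 was 0.462, 0.499 and 0.530 in controls, 0.360 in ultrasound 1, and 1.07 and 1.1 in ultrasound 2 and 3, so ultrasound 1 lay on the other side of the controls. Of the 28 pairs of members, 12 had ratios that did not overlap between groups, and these included 6 of the 7 pairs with Gimap3 and 5 of the 7 with Gimap6. The 7 pairs with Gimap7 all overlapped. These pairs share members and libraries and were not tested, and the share among ratios of other genes was not computed. For single genes the groups did not overlap in 34.8% of all tested genes.

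The makeup of the family's summed level moved accordingly. Gimap6 held 30.5% to 32.7% of the summed FPKM in controls and 27.3%, 24.8% and 23.3% in ultrasound 1, 2 and 3. Gimap3 held 21.8% to 22.6% in controls and 26.8%, 29.3% and 31.4%. Gimap7 held 2.96% to 3.27% in controls, 2.51% in ultrasound 1, and 4.92% and 4.8% in ultrasound 2 and 3. Gimap4 stayed between 20.7% and 22.6% in all libraries.

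**Figure D3:**
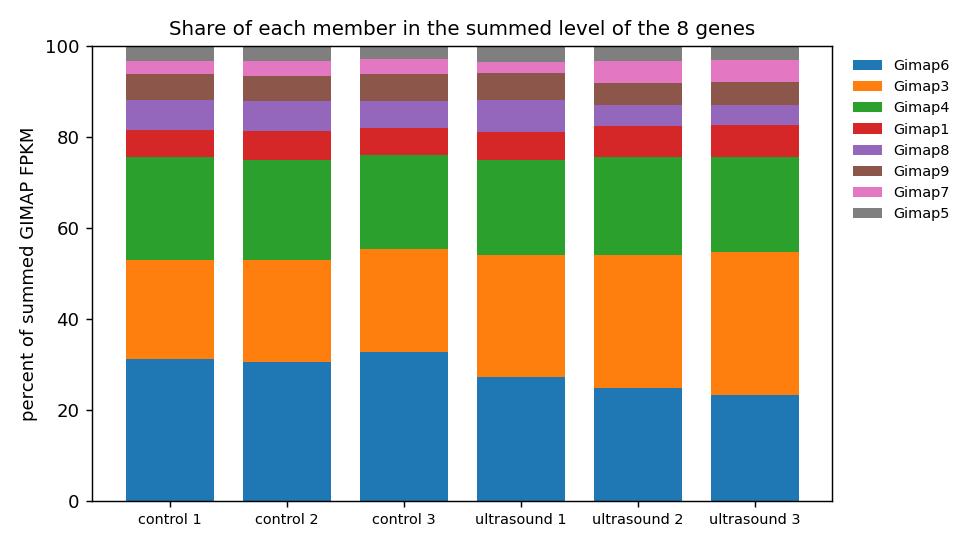
Share of each member (stacked bars, percent of the summed FPKM of the 8 genes, y axis) in each library (x axis). The share of Gimap6 is lower and that of Gimap3 higher in each ultrasound library than in every control.

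Because the T cell content of the libraries may differ, the members were also set against the geometric mean of the 12 T and CD8 markers. This scaling was chosen after the data were seen. The 12 include Ptprc, the gene of CD45, which is not specific to T cells. The scaling factor was 0.984 to 1.06 in controls, 0.864 in ultrasound 1, and 1.06 and 1 in ultrasound 2 and 3. Scaled in this way, Gimap6 was 467 to 550 in controls and 456, 395 and 382 in ultrasound libraries, without overlap, and its log2 difference was -0.31 (limma adjusted p 0.107), smaller than the -0.39 before this scaling. Gimap3 was 345 to 381 in controls and 448, 468 and 515 in ultrasound libraries, and its log2 difference of 0.40 then passed (limma adjusted p 0.0399), alone among the members, as did 16.5% of all tested genes (15.6% higher). Gimap8 and Gimap9 overlapped with the controls under this scaling, and Gimap1 was higher in all ultrasound libraries (102, 111 and 116 against 96.8 to 99.9). The share of all tested genes whose groups do not overlap was not computed for this scaling. It moved the median log2 difference over all tested genes from 0.087 to 0.16.

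The family was set beside lists of related genes. Genes of lymphocyte quiescence and the naive state, a state in which GIMAP genes are highly expressed, had a median log2 difference of -0.29 over 17 tested members. Of these, 5 passed and were lower, beside 1.56% of all tested genes. They were Klf2 (-0.92), Tob1 (-1.32), Btg1 (-0.66), Btg2 (-1.03) and S1pr1 (-0.50), with limma adjusted p of 0.0311 to 0.0377. Klf2, the factor that maintains quiescence and drives the egress receptor gene S1pr1, had 653 to 751 FPKM in controls and 477, 299 and 347 in ultrasound 1, 2 and 3. Among those that did not pass, the homing receptor gene Ccr7 had a log2 difference of -0.36, and Slfn2 and Txnip of 0.65 and 0.39. Monocyte, macrophage and neutrophil marker sums were higher in the same libraries, and their part was not tested. In 11 of the 17 every ultrasound library was lower than every control, beside 8.96% of all tested genes. The list was not tested against the GIMAP members. Without control 1, 2 of the 17 passed by limma, beside 571 of 10568 tested genes. Without ultrasound 1, 12 passed, beside 53.6% of all tested genes. With control 2, control 3, ultrasound 2 or ultrasound 3 left out, 0 of the 17 and 0 of all tested genes passed by limma. There the unadjusted limma p was under 0.05 for 7 to 11 of the 17, beside 1913 to 2137 of 10471 to 10586 tested genes.

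Another list held proteins reported as GIMAP partners and their pathways, the GABARAP and LC3 autophagy genes, Gsk3a, Gsk3b and the Bcl2 family. The median log2 difference over its 15 tested members was 0.13, against 0.087 for all tested genes. Of the 15, 2 passed, both higher, beside 6.55% of all tested genes that passed and were higher. Gabarap, an autophagy adaptor, had 96.9 to 120 FPKM in controls and 142, 167 and 185 in ultrasound libraries (log2 difference 0.62, limma adjusted p 0.0423). Bak1, which opens the mitochondrial outer membrane in apoptosis, had 33.7 to 39.6 and 46.3, 58.0 and 67.9 (0.65, limma adjusted p 0.0481). With median-of-ratios size factors 0 of the 15 passed by limma, beside 4.39% of all tested genes. Under that scaling 4 of them had an unadjusted p under 0.05, beside 3268 of 10655 tested genes. With any 1 control, ultrasound 2 or ultrasound 3 left out, 0 of the 15 passed by limma. Of all tested genes, 571 passed in the fit without control 1 and 0 in the others. The unadjusted limma p was under 0.05 for 2 or 3 of the 15, beside 1913 to 2393 of 10471 to 10586 tested genes. Without ultrasound 1, 11 of the 15 passed, beside 53.6% of all tested genes. Of the other abundant genes of the list, the kinase gene Gsk3a had a log2 difference of 0.29, Mcl1, a survival gene, of -0.20, Bax, which promotes apoptosis, of 0.13, and Map1lc3b, an LC3 gene, of -0.16. Gabarapl2, the partner of Gimap6, had 39.0, 42.7 and 41.6 FPKM in controls and 35.4, 51.1 and 48.9 in ultrasound libraries, with a limma adjusted p of 0.594. Bcl2, the survival gene, had 32.8 to 37 FPKM in controls, 53.8 in ultrasound 1, and 21.4 and 17.9 in ultrasound 2 and 3, on both sides of the controls. Gabarapl2 and Bcl2 were picked for their roles. Monocyte and macrophage markers were higher in the same libraries as Gabarap and Bak1, and their part in these values was not tested.

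Other GTPase families were examined as well. Of 7 tested septins, the nearest relatives by GTP-binding domain, 0 passed at the adjusted p of 0.05, and 4 had an unadjusted limma p under 0.05, beside 31.2% of all tested genes. Their median log2 difference was 0.062. Without ultrasound 1, 4 of the 7 passed by limma, near the 53.6% of all tested genes. Septin7 had 63.2 to 72.9 FPKM in controls, 62.0 in ultrasound 1, and 39.3 and 32 in ultrasound 2 and 3, the same split as Gimap8. Septin1, the most abundant, had 122 to 140 FPKM in controls and 119 to 135 in ultrasound libraries. Septin9 and Septin6 had log2 differences of 0.41 and -0.096. Of 14 interferon-inducible IRG and GBP GTPases, 1 passed, beside 8.11% of all tested genes. This was Gbp6, which had 28.6 to 29 FPKM in controls and 22, 14.8 and 17.4 in ultrasound libraries (log2 difference -0.66, limma adjusted p 0.0413). With any 1 control, ultrasound 2 or ultrasound 3 left out, 0 of the 14 passed by limma. Of all tested genes, 571 passed in the fit without control 1 and 0 in the others. The unadjusted limma p was under 0.05 for 2 to 4 of the 14, beside 1913 to 2393 of 10471 to 10586 tested genes. Without ultrasound 1, 8 of the 14 passed, near the share of 53.6% of all tested genes. The abundant Igtp, Gbp2, Irgm1 and Gbp4 had log2 differences of -0.044, 0.20, -0.15 and -0.51. Their median was -0.13, near the -0.057 of the GIMAP members, and no test of the difference between the families was made.

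**Figure D4:**
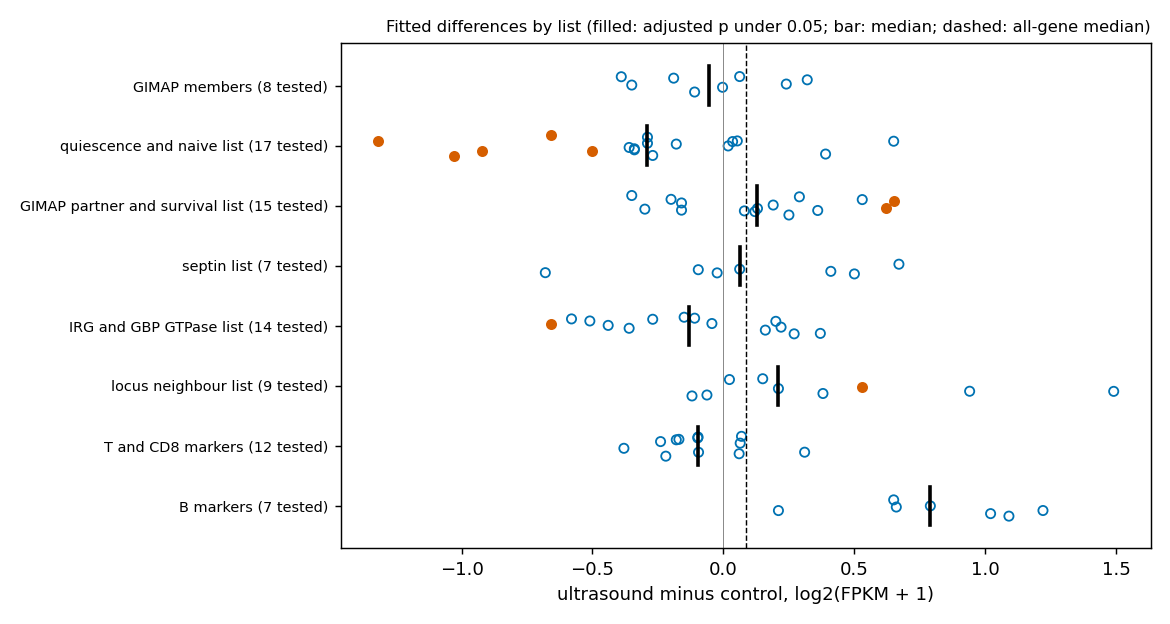
Fitted ultrasound minus control difference (x axis, log2(FPKM + 1)) of each tested gene, by list (rows); filled points passed a limma adjusted p of 0.05, bars are list medians and the dashed line is the median of all tested genes. The 8 GIMAP points lie between -0.39 and 0.32 with none filled, while 5 quiescence genes are filled on the lower side.

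The genes whose profile over the 6 libraries was most like the mean profile of the family were sought among the other tested genes by Pearson correlation. They were Traf1 (r = 0.987), Zkscan14 (0.984), Fam174c (0.981), Ifi206 (0.980), Tkfc (0.974) and Arhgap9 (0.973). The 6 points are the same libraries for every gene, so these values describe likeness and carry no test. Traf1, an adaptor of TNF receptor signalling, had 43.1, 47.3 and 52.3 FPKM in controls and 36.9, 49.9 and 47.7 in ultrasound libraries. Arhgap9 had 137 to 153 FPKM in controls, 122 in ultrasound 1, and 153 and 152 in ultrasound 2 and 3. The shared feature of these genes and the family mean is a low value in ultrasound 1.

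Leaving out ultrasound 1 changed the calls in the family. Without ultrasound 1, 5 of the 8 members passed by limma, beside 53.6% of all tested genes (19.9% lower and 33.8% higher). They were Gimap1, Gimap3 and Gimap7, higher by 0.20, 0.45 and 0.63 on the log2 scale, and Gimap6 and Gimap8, lower at -0.38 and -0.49, with limma adjusted p from 0.00137 to 0.0357. When ultrasound 2 and 3 had a term of their own, only ultrasound 1 was set against the controls. The spread in that fit comes from the controls and from ultrasound 2 and 3, and the lone library is assumed to vary like them. For this reason only log2 differences are given here. Gimap7 then turned to -0.52 and Gimap1 to -0.21, and Gimap6 stayed at -0.40. The labels name no batch that would separate these libraries.

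**Figure D5:**
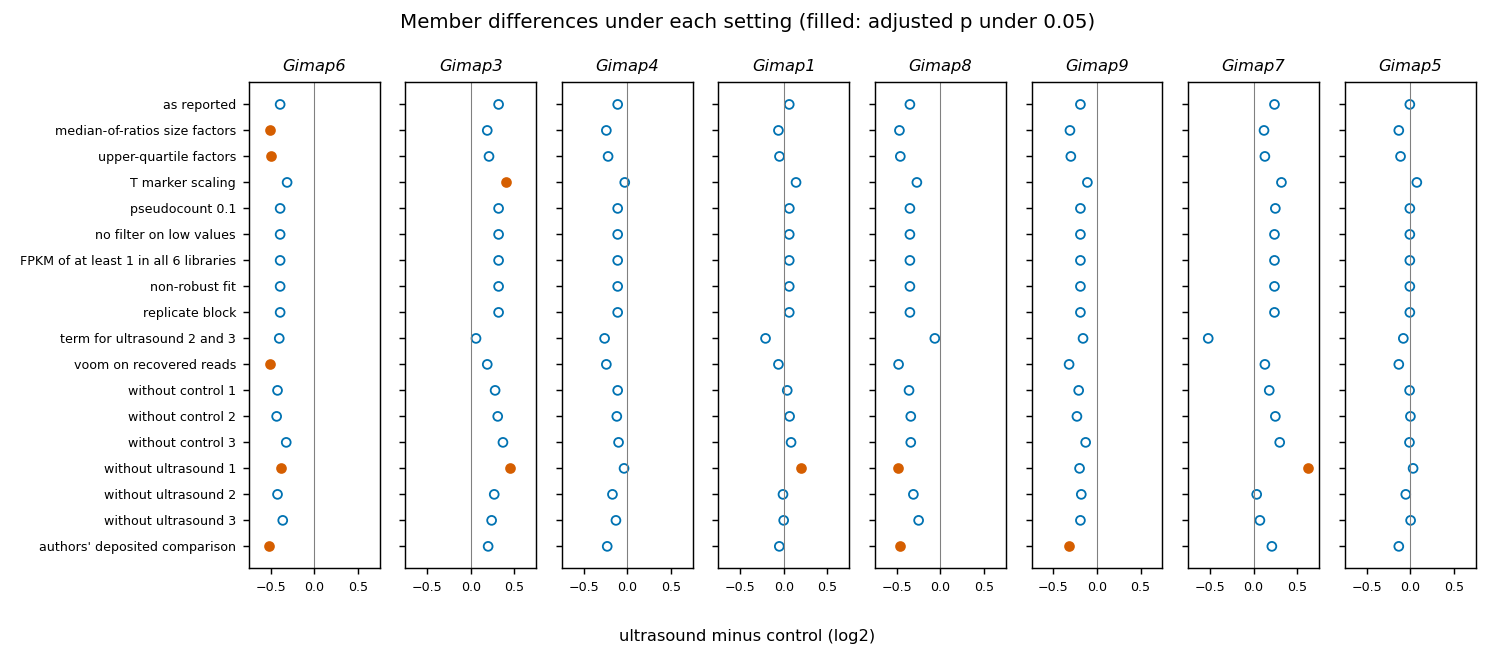
Fitted difference of each member (x axis, log2) under every setting (rows); filled points have an adjusted p under 0.05. Gimap6, Gimap8, Gimap9 and Gimap4 lie below 0 in every row, Gimap3 above 0 in all, and Gimap7 crosses 0 only with the term for ultrasound 2 and 3.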

How the data were processed

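RNA-seq of sorted splenic CD8 T cells was deposited as a gene table for 3 control and 3 ultrasound samples, grouped by title. For the deposited data, the submitters' processing notes name HISAT2, HTSeq, DESeq2, R 3.2.0 and mm10, without roles, and no strand setting is given in the sources used here. The authors deposited FPKM per library. Per the file headers, the signal columns are means of DESeq2 normalized counts, the fold change and log2 fold change compare the groups, and the p-value and q-value belong to that comparison.

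Limma 3.58.1 (trend, robust; R 4.3.3) was run here on log2(FPKM + 1) for the 10655 genes that reached FPKM 1 in 3 or more libraries, with two-sided Benjamini-Hochberg adjusted p-values at 0.05; this scale understates the change of low genes. Whole reads were recovered from the linear relation between FPKM and the authors' group means; 100% of 52694 values from 1 to 500 reads lay within 0.05 of a whole number. Counting errors cover counting only. The fit was tested on simulated data. Members and lists were chosen with earlier results of these data known. Named genes are the 8 members, list members that passed with up to 4 others by level, sort markers, and the 6 genes most correlated with the family mean, and others were chosen after their values were seen. The values of 1 gene that this rule names are not reported here. Promoter windows and coordinates are RefSeq GRCm38.p6. Alternatives covered scaling, pseudocount, filters, the robust option, a replicate block, a term for ultrasound 2 and 3, voom on recovered reads, each library left out and the authors' table; scaling to T markers was added after seeing the data.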

Additional observations from a re-analysis of the deposited data

How the results depend on the processing

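Of 136 results for the 8 members over 17 alternatives, 112 kept their direction and side of the threshold, 12 came to pass it and 12 reversed. The cause was not tested unless stated. Genes called, 864 as reported, were 468 with median-of-ratios size factors, 568 by voom, 1755 with T marker scaling, 150 with the term for ultrasound 2 and 3, 2179 in the authors' deposited table, 0 with no filter on low values (4216 at an unadjusted limma p under 0.05) and 0 to 5628 with 1 library left out (1913 to 6315 unadjusted).

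Members passing, 0 as reported (3 at an unadjusted limma p under 0.05), were 1 with median-of-ratios factors, upper-quartile factors, voom and T marker scaling, 3 in the authors' deposited table, and 0 to 5 with 1 library left out, the 5 without ultrasound 1. With the replicate block, 0 genes passed by limma (3249 at an unadjusted p under 0.05), among them 0 members, and all 5 lists had 0. Same-numbered libraries deviated from their group means with correlations of -0.04, 0.05 and 0.06. The labels do not say whether samples of the same number were paired. The correlations cannot settle it, since paired samples need not deviate alike over all genes.

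Gimap1 turned to -0.062 with median-of-ratios factors and by voom, -0.05 with upper-quartile factors, -0.21 with the term for ultrasound 2 and 3 and -0.052 in the authors' deposited table, and ran from -0.0096 to 0.20 with 1 library left out. Gimap5 turned to 0.077 with T marker scaling and ran from -0.05 to 0.034. Gimap7 turned to -0.52 with the term and ran from 0.036 to 0.63. Gimap6 passed at -0.51 with median-of-ratios factors and by voom, -0.50 with upper-quartile factors and -0.52 in the authors' deposited table, and ran from -0.43 to -0.32. Gimap3 passed at 0.40 with T marker scaling and ran from 0.24 to 0.45. Gimap8 and Gimap9 passed at -0.46 and -0.32 in the authors' deposited table, and Gimap8 ran from -0.49 to -0.25.

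Quiescence genes called, 5 as reported, were 3 with T marker scaling, 8 by voom, 12 in the authors' deposited table, 0 with no filter and with the term, and 0 to 12 with 1 library left out. Partner genes, 2 as reported, were 0 with median-of-ratios factors, upper-quartile factors, voom, no filter and the term, 4 with T marker scaling and 0 to 11 with 1 library left out. Septins, 0 as reported, were 2 with T marker scaling, 1 with pseudocount 0.1, with FPKM of at least 1 in all 6 libraries and with the term, 3 in the authors' deposited table and 0 to 4 with 1 library left out. IRG and GBP genes, 1 as reported, were 0 with T marker scaling, no filter and the term, 3 in the authors' deposited table and 0 to 8. Genes of the neighbour list, 1 as reported, were 2 with T marker scaling and in the authors' deposited table, and 0 to 5 with 1 library left out. They were 0 with median-of-ratios factors, upper-quartile factors, voom, no filter, FPKM of at least 1 in all 6 libraries and the term. Each member had at least 1616 reads in every library.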
